A study of Homo sapiens with 10 samples.

Results

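KYSE-410 cells treated with the SHIP2 inhibitor K149 were compared with their own solvent controls by RNA sequencing. The members are the 6 libraries that the labels give for this arm, of 10 in the series, and the 17191 genes with a mean of at least 1 CPM (reads of a gene scaled by its library's total) in either group, of 58302 gene IDs in the deposited table. KYSE-410 is an established human cell line from an esophageal squamous cell carcinoma. In 3 libraries the cells had received K149 at 2 µM, and in 3 they had received the solvent DMSO at 0.1%; all 6 were collected after 48 h. K149 is known here only by its code name, and the submitters describe it as an inhibitor of SHIP2. None of the 6 libraries carries a genetic loss of that enzyme or an inactive compound as a further control, and the DMSO content of the treated cultures is not stated in the labels. Nothing in the labels states that replicates were cultured separately, and the p-values below therefore rest on a spread that may be technical only.

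SHIP2, the product of INPPL1, is a lipid phosphatase that acts on the phosphoinositide made by PI3K at the plasma membrane. That lipid recruits the kinase AKT, which holds FOXO transcription factors out of the nucleus and supports mTORC1, the kinase complex that matches growth to amino acid supply. When mTORC1 is low, factors of the TFEB family turn on lysosome and autophagy genes, and when amino acids run short the factor ATF4 turns on their uptake and synthesis. Entry into S phase needs E2F factors, and the genes of G2 phase and mitosis are driven later by B-MYB and FOXM1 through a promoter element called the CHR.

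On the depth inferred from the table, the libraries held 20.0 to 23.1 M reads. Replicates differed by more than counting error in both groups, with a chi-square per degree of freedom of 1.32 to 2.51 between DMSO libraries, 2.60 between K149 replicates 1 and 3, and 6.50 and 8.07 between replicate 2 and the other K149 libraries. K149 replicate 2 thus stood apart from its group. K149 replicate 1 stood apart in the nuclear-retained RNA MALAT1 (704 CPM there, 153 and 148 CPM in the other K149 libraries). The 9 listed nuclear-retained RNAs summed to 1984, 1224 and 1342 CPM in K149 replicates 1, 2 and 3 and 884 to 1013 CPM with DMSO. Without MALAT1 these sums were 1280.2, 1071, 1194 and 819 to 919 CPM. The number of genes called was 11020 without K149 replicate 1 and 12638 without replicate 2, against 11898 with all 6 libraries.

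The squamous label was checked on 10 markers. TP63, the master factor of stratified epithelium, was present at 126, 117 and 115 CPM in the DMSO libraries and 97, 91.1 and 99.2 CPM with K149, and TRIM29, SFN and KRT17 were also above 30 CPM in every library. Of the defining keratins of basal squamous cells, KRT14 was below the filter, as was the desmosomal PKP1, and KRT5 was low, falling from 8.91 to 1.18 CPM (-2.22 ± 0.16). Per kilobase of exon, the level of KRT5 with DMSO was 2.08 CPM, whereas the simple-epithelium keratins KRT7 and KRT8 stood at 425 and 221 CPM. With K149, 7 of the 8 squamous markers tested fell and DSG3 rose. Markers of other cell types were mostly below the filter, with 6 of 10 columnar, 7 of 10 fibroblast, 5 of 8 endothelial, 9 of 10 immune and 8 of 10 neuronal genes under it. The fibroblast list summed to 231 to 243 CPM with DMSO and 258 to 276 CPM with K149, almost all of it from LUM, while COL1A2, COL3A1 and PDGFRA were below the filter.

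K149 changed most of the transcriptome by a small amount and a much smaller set of genes by a large one. Of 17191 genes tested with limma on log2(CPM + 1), 11898 passed an adjusted p of 0.05 (69.2%), 6479 higher (37.7% of genes tested) and 5419 lower (31.5%). The median size of the log2 fold over all genes was 0.337, so a call alone says little about size. The counts of genes that rose or fell in each list below are to be read against the shares of 37.7% and 31.5%. At least 2-fold changes were fewer, with 590 genes higher (3.43%) and 992 lower (5.77%). At least 4-fold changes lay largely on one side, with 40 genes higher (0.233%) and 323 lower (1.88%). No gene went from under 1 CPM to at least 10 CPM, while 19 fell from at least 10 CPM to under 1 CPM. Among them were the helicase subunit GINS2, the polymerase subunit POLE2, the kinetochore gene SPC25 and E2F2.

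**Figure D1:**
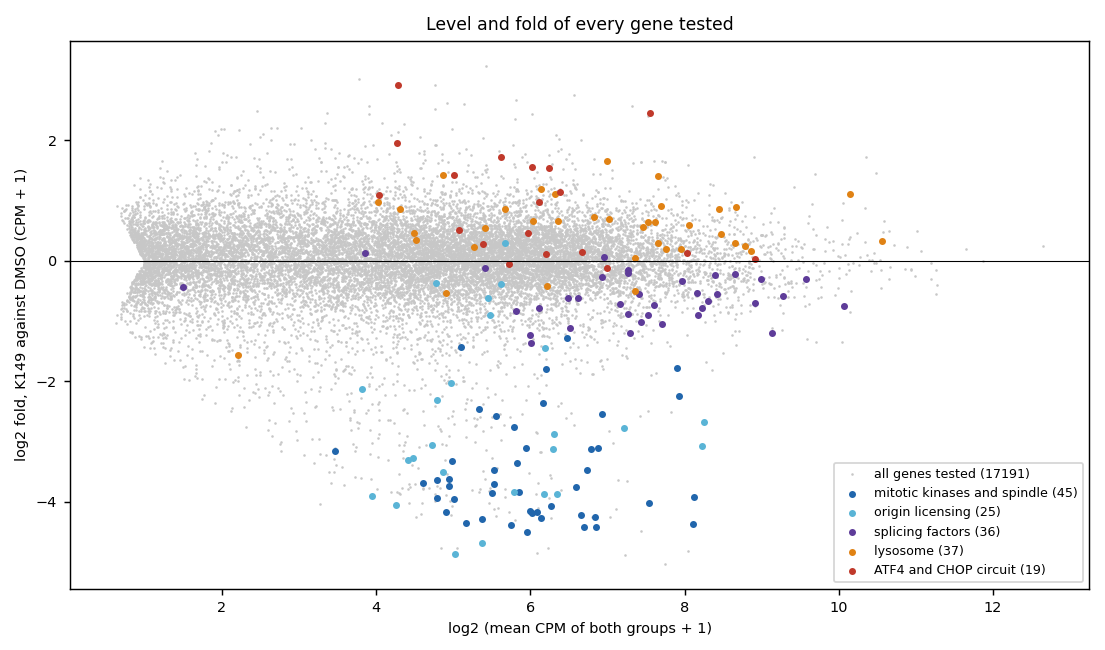
Every gene tested is plotted by its level (x axis, log2 of the mean CPM of both groups plus 1) and its log2 fold (y axis, K149 against DMSO), with 5 gene lists in colour. The mitotic and origin licensing genes lie mostly 4-fold or more below 0, and the splicing factors form a band just under 0.

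The transcript of the drug's target, INPPL1, rose. It stood at 119.5, 118 and 102 CPM in the DMSO libraries and 169.7, 166 and 185 CPM with K149, and the groups did not overlap (log2 fold ± SE 0.61 ± 0.06, limma adjusted p = 2e-06). Of 13 tested genes in the list of 5-phosphatases and related phosphatases, 8 rose and INPP5B fell, with a median log2 fold of 0.19 against 0.04 over all genes tested. INPP5K, a family member of the endoplasmic reticulum, rose most (0.82 ± 0.07, adjusted p = 2.4e-07).

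Genes of the PI3K pathway itself moved modestly, with the largest rises in an inhibitor and a regulatory subunit. Of 17 tested, 12 rose, 2 of them at least 2-fold, and 2 fell, against 37.7% higher and 31.5% lower over all genes tested. PIK3IP1, a membrane protein that restrains the PI3K catalytic subunit, was at 5.5, 4.55 and 4.25 CPM in the DMSO libraries and 18.1, 18 and 18.9 CPM with K149 (1.75 ± 0.1, limma adjusted p = 3.5e-09). PIK3R3, a regulatory subunit, was at 32, 30.5 and 30.6 CPM in the DMSO libraries and 75, 70.1 and 76.5 CPM with K149 (1.22 ± 0.06, adjusted p = 6.3e-10). Every K149 library was above every DMSO library for both genes. AKT1 fell slightly (-0.18 ± 0.04), and AKT2 did not pass the test, with a log2 fold of -0.09.

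Several regulators that switch cell-cycle genes on fell to a small part of their control level. MYBL2, which encodes B-MYB, was at 500.2, 513 and 508 CPM in the DMSO libraries and 16, 17.2 and 17.9 CPM with K149 (-4.82 ± 0.05, limma adjusted p = 1.9e-15). FOXM1, the forkhead factor of G2 phase, was at 279, 282 and 281 CPM in the DMSO libraries and 19.8, 23.3 and 21.5 CPM with K149 (-3.65 ± 0.06, adjusted p = 2.3e-14). Each replicate group was tight and the gap between groups was many times its spread. E2F1 fell from 35.7 to 1.55 CPM and E2F2 from 17.2 to 0.117 CPM, so that E2F2 was close to 0 with K149. In the list of 21 E2F, RB and MuvB factors, 17 fell, 10 of them at least 2-fold, and 3 rose. The median log2 fold of this list was -0.67, so many members changed far less than those named above. The clearest rise was RBL2, the pocket protein p130 of the repressor complex that holds cell-cycle genes off in resting cells, at 82.2, 81.8 and 77.7 CPM in the DMSO libraries and 119, 107 and 129.8 CPM with K149 (0.55 ± 0.06, adjusted p = 5.4e-06), while its relative RBL1 fell from 45 to 7.64 CPM.

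Replication genes fell with their regulators. In origin licensing and helicase loading, 24 of 25 genes fell, 20 of them at least 2-fold and 19 at least 4-fold, with a median log2 fold of -3.05. MCM10, which activates the loaded helicase, was at 61.7, 62.9 and 61.2 CPM in the DMSO libraries and 0.949, 1.05 and 1.55 CPM with K149 (-4.86 ± 0.1, limma adjusted p = 2.3e-13), next to nothing in all 3 treated libraries. The 6 core helicase subunits MCM2 to MCM7 fell less, by log2 folds from -2.67 for MCM7 to -3.86 for MCM2. ORC4, a subunit of the origin recognition complex, was the member that rose (0.29 ± 0.06). At the replication fork, 32 of 34 genes fell and 1 rose, with a median of -2.16. The exception was POLD4, a small accessory subunit of DNA polymerase delta, at 89.3, 88.9 and 87 CPM in the DMSO libraries and 150.3, 182 and 149.04 CPM with K149 (0.85 ± 0.07, adjusted p = 1.6e-07).

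The nucleotide supply genes contained a switch between 2 subunits of ribonucleotide reductase, the enzyme that makes deoxynucleotides. RRM2, the subunit of S phase, was at 284, 284 and 302 CPM in the DMSO libraries and 8.645, 9.595 and 8.49 CPM with K149 (-4.88 ± 0.06, limma adjusted p = 2.9e-15). RRM2B, the p53-inducible subunit used outside S phase, was at 51.1, 47.8 and 49.97 CPM in the DMSO libraries and 119, 97 and 129.9 CPM with K149 (1.19 ± 0.08, adjusted p = 4.8e-08). RRM2B was thus the more abundant of the pair in CPM in each treated library, the reverse of the control order, though the 2 genes differ in exon length. TK1, thymidine kinase, fell by a log2 fold of -4.26, and in the whole list 23 of 26 genes fell and RRM2B alone was called higher.

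Mitotic genes formed the most uniform list. All 45 genes for mitotic kinases, condensin, the spindle and cytokinesis fell at least 2-fold, 41 of them at least 4-fold, with a median log2 fold of -3.73. All 37 centromere and kinetochore genes also fell, 32 at least 2-fold, with a median of -2.90. PLK1, the polo-like kinase that drives entry into and passage through mitosis, was at 132, 131 and 134 CPM in the DMSO libraries and 5.45, 6.35 and 6.04 CPM with K149 (-4.27 ± 0.07, limma adjusted p = 1.9e-14). TOP2A, the topoisomerase that untangles chromosomes, was at 519, 544 and 521 CPM in the DMSO libraries and 25.4, 24.9 and 23.8 CPM with K149 (-4.36 ± 0.05, adjusted p = 1.9e-15). The K149 values of both genes were a few percent of the controls. The medians of the mitotic list in the single K149 libraries against the DMSO mean were -3.84, -3.74 and -3.81, so neither of the libraries that stood apart set this value. In bulk RNA, fewer cells in these phases and less RNA per cell cannot be told apart.

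Cyclins and their inhibitors did not all follow. Of 17 cyclins and CDKs, 14 fell, among them CCNB1 from 259 to 19.8 CPM and CDK1 from 139.6 to 11 CPM. CCND1, a cyclin of G1 phase, was at 539, 542 and 552 CPM in the DMSO libraries and 709, 699 and 708 CPM with K149 (0.37 ± 0.04, limma adjusted p = 1.5e-06), slightly higher in every treated library. CDK6 (0.33 ± 0.06) and CCNG2, an atypical cyclin found in resting cells (1.3 ± 0.06, from 22.8 to 57.4 CPM), also rose. Among the CDK inhibitors, CDKN1A, which encodes p21, was at 131, 125 and 135 CPM in the DMSO libraries and 391, 420.5 and 379 CPM with K149 (1.6 ± 0.05, adjusted p = 1.2e-11). CDKN2B, which encodes p15, was at 69.1, 68.1 and 66.4 CPM in the DMSO libraries and 194, 192 and 201 CPM with K149 (1.52 ± 0.04, adjusted p = 6.5e-12). Both were near 3 times the control level in every treated library, whereas CDKN1B fell (-0.37 ± 0.05) and CDKN2C, the p18 inhibitor, fell from 22.35 to 5.18 CPM.

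**Figure D2:**
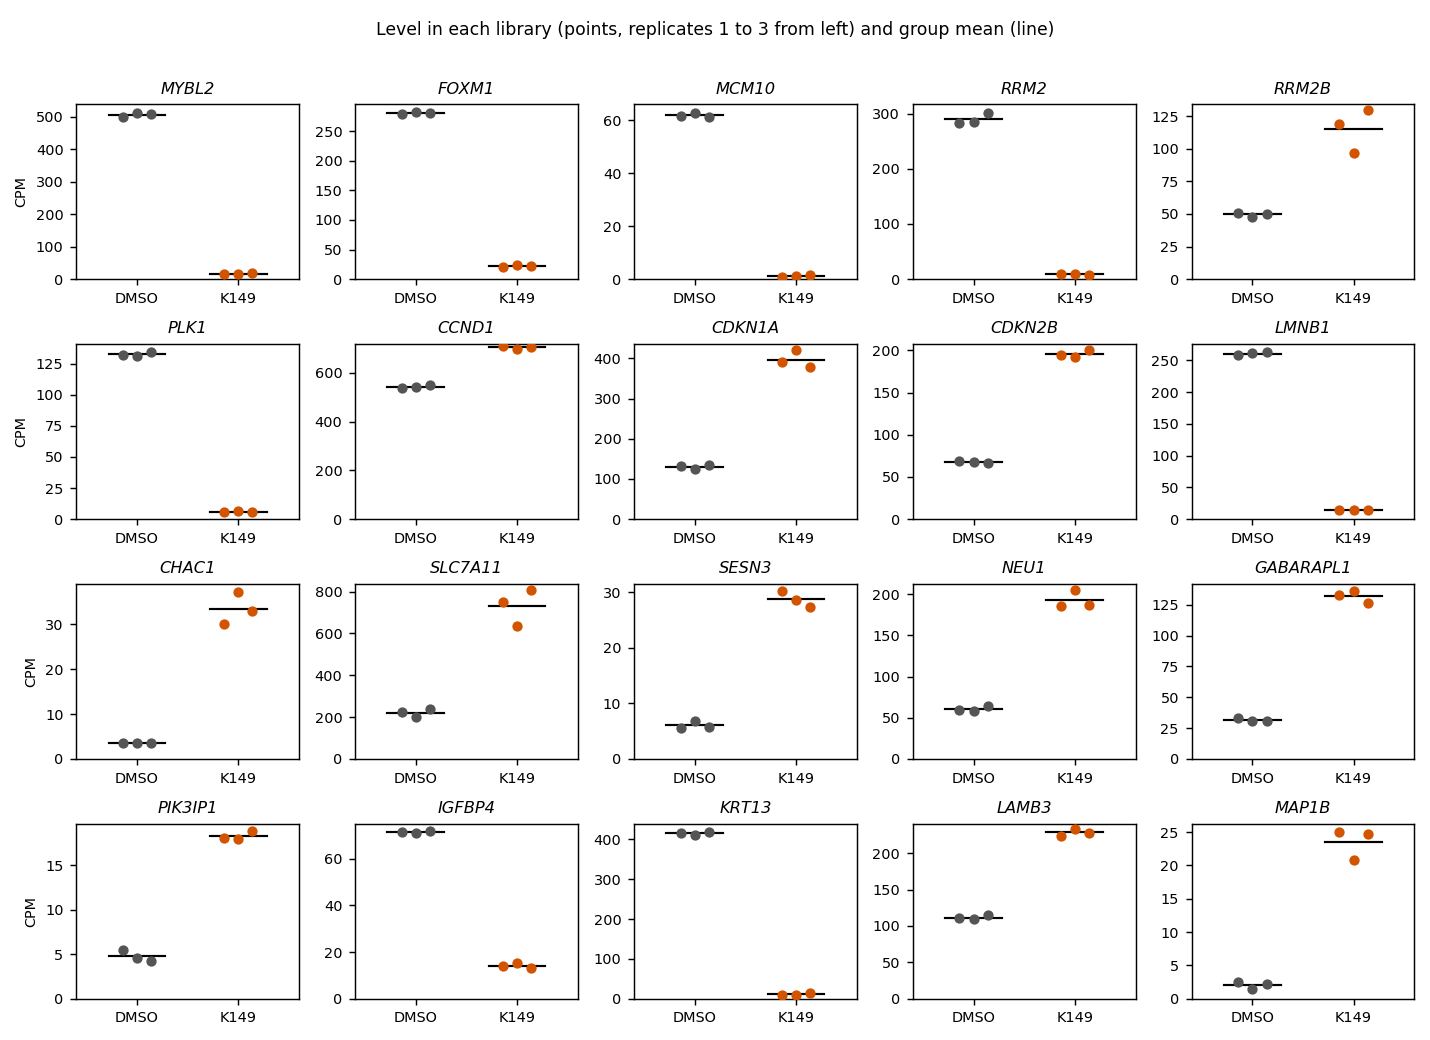
Level of 20 genes in CPM (y axis, from 0) in each library, with DMSO libraries in grey, K149 libraries in orange and a line at each group mean. No DMSO and K149 values overlap in any panel, and RRM2 falls while RRM2B rises.

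Promoter sequences were read for the lists whose regulators have known elements. The windows are the 250 bases before the gene start in RefSeq on GRCh38.p14, read 5′ to 3′ on the gene's strand, and both strands were searched. CCNB2 (cyclin B2, of the cyclin list) and PLK1 (of the mitotic list) are shown for the CHR, with capitals at CCAAT boxes (CCAAT, bound by NF-Y) and at the CHR (TTTGAA). MCM6 is shown for the licensing list, with capitals at E2F motifs (TTTGGCGC, TTTCCCGC, TTTCGCGC or TTTGCCGC) and CCAAT boxes read on the other strand; each of its 2 E2F stretches holds 2 overlapping matches, 1 on each strand. CHAC1 is shown for the amino acid response, with capitals at that element (TGATGNAA, here on the other strand) and at CCAAT boxes. GAA, acid alpha-glucosidase, is shown for the lysosome, with capitals at 2 CLEAR motifs (TCACGTGA), the site of TFEB-family factors.
CCNB2, chr15:59104896-59105145, plus strand: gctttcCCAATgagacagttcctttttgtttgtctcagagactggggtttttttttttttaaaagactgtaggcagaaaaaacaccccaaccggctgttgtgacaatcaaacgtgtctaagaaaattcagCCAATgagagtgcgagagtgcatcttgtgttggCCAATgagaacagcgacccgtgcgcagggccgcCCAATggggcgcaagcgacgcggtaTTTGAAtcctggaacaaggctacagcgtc
PLK1, chr16:23678639-23678888, plus strand: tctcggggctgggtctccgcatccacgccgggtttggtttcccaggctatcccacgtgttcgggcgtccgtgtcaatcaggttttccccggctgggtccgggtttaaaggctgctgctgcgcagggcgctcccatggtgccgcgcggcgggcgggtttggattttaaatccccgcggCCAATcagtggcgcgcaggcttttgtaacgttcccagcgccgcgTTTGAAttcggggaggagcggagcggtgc
MCM6, chr2:135876444-135876693, minus strand: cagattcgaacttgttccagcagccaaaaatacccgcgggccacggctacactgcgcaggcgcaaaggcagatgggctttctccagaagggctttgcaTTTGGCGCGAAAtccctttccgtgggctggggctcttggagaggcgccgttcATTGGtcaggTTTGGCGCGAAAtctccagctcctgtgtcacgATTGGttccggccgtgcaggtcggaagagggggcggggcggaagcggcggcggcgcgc
CHAC1, chr15:40953221-40953470, plus strand: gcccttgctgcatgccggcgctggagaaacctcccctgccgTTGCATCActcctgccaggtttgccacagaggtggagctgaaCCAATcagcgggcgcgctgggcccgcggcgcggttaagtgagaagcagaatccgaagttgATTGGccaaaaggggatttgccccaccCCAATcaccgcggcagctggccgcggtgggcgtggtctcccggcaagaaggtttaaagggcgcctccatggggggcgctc
GAA, chr17:80101331-80101580, plus strand: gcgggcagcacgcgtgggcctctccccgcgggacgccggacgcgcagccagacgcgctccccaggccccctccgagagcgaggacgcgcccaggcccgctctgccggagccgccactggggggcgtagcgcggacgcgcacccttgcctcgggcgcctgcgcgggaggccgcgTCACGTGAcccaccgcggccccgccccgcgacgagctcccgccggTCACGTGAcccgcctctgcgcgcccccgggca

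In CCNB2 and in PLK1 the CHR lies at the same distance from the start, from base -29 to base -24, with CCAAT boxes upstream of it. The CHR was found in 21 of 38 mitotic promoters (55.3%), in 5 of 29 kinetochore promoters (17.2%), in 1 of 30 fork promoters (3.33%) and in 0 of 22 licensing promoters, against 8.52% of the 10666 genes tested that had a promoter and 13.6% of all 27305 promoters. The E2F motifs were in 6 of 22 licensing promoters (27.3%), 7 of 30 fork promoters (23.3%), 4 of 29 kinetochore promoters (13.8%) and 1 of 38 mitotic promoters (2.63%), against 4.28% of genes tested and 2.79% of all promoters. A CCAAT box was in 73.7% of mitotic, 59.1% of licensing, 58.6% of kinetochore and 56.7% of fork promoters and in 55.6% of those of the ATF4 and CHOP list, against 35.1% of genes tested and 33.0% of all promoters. The amino acid response element was in 4 of 18 promoters of the ATF4 and CHOP list (22.2%), those of CHAC1, ASNS, ATF3 and PPP1R15B, against 1.46% of genes tested and 3.19% of all promoters. That element was also in 2 of 16 promoters of cytosolic tRNA-charging enzymes (12.5%) and 1 of 29 kinetochore promoters (3.45%). The CLEAR motif was in 3 of 26 lysosome promoters (11.5%), 2 of 30 fork promoters (6.67%) and 1 of 22 licensing promoters (4.55%). Its shares of genes tested and of all promoters were 1.63% and 0.89%. These shares are a description of letters in a window, with no test, and do not show which factor was bound.

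**Figure D3:**
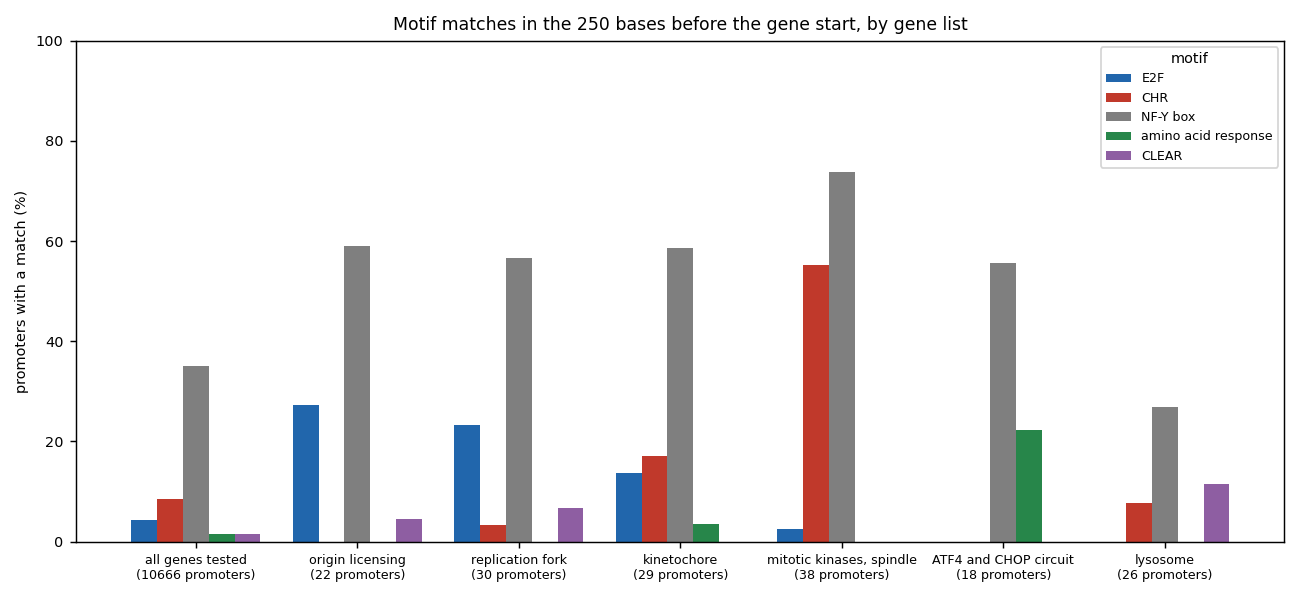
Share of promoters with a match to each of 5 motifs (y axis, percent, from 0) in the 250 bases before the start, for all genes tested and 6 gene lists, with the number of promoters in brackets. The CHR stands highest in the mitotic list at 55.3% and E2F in the licensing list at 27.3%.

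Repair and chromatin genes linked to S phase also fell. Of 31 genes for recombination and crosslink repair, 28 fell with a median log2 fold of -1.88, and the mismatch repair gene PMS2 rose (0.31 ± 0.06). Of 26 genes for DNA methylation, Polycomb, lamins and high-mobility group proteins, 21 fell and 3 rose. LMNB1, the lamin B1 of the nuclear envelope whose loss is a known mark of senescent cells, was at 258, 261 and 263 CPM in the DMSO libraries and 14.6, 13.9 and 13.7 CPM with K149 (-4.12 ± 0.05, limma adjusted p = 2.9e-15). LMNA, which encodes lamins A and C, fell far less (-0.32 ± 0.06). In 2 enzyme families some members fell and a relative rose. DNMT1, which maintains DNA methylation after replication, fell from 182 to 57.5 CPM and the de novo enzyme DNMT3B from 17.5 to 7.03 CPM, while DNMT3A, also a de novo enzyme, rose from 11.6 to 22.3 CPM (0.89 ± 0.08). EZH2, the Polycomb methyltransferase, fell from 59.4 to 17.35 CPM, while EZH1 rose from 28.15 to 42.7 CPM (0.6 ± 0.09).

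The p53 targets and the BCL2 family were divided. Of 27 p53 targets and partners, 15 rose and 8 fell. ZMAT3, a p53-induced RNA-binding protein, was at 24.8, 21.8 and 22.8 CPM in the DMSO libraries and 64.1, 57.5 and 65 CPM with K149 (1.39 ± 0.07, limma adjusted p = 1.3e-09). MDM2, the p53 ligase and a standard target, was at 106, 104 and 104 CPM in the DMSO libraries and 107, 99.2 and 100.1 CPM with K149 and did not pass the test (-0.03 ± 0.05, adjusted p = 0.53). Its groups overlapped, unlike those of CDKN1A and ZMAT3. Of 17 BCL2 family genes, 8 rose and 5 fell, against 37.7% higher and 31.5% lower over all genes tested. The BH3-only genes BMF, BBC3 and BCL2L11, whose products promote apoptosis, rose by log2 folds of 2.67, 1.24 and 0.73, and HRK rose from a low level (0.15, 0.25 and 0.1 CPM with DMSO, 2.4, 2 and 2.85 CPM with K149). Other death-promoting members fell, namely BID, BAD, BNIP3 and the pore-forming BAX, with log2 folds of -0.43, -0.24, -0.71 and -0.36. The BAD groups overlapped, and BNIP3 was low, at 1.4 CPM with DMSO and 0.467 CPM with K149. BNIP3L, the relative of BNIP3, rose from 54.35 to 117.4 CPM (1.1 ± 0.05). The protective genes diverged, with BCL2 falling from 7.71 to 3.4 CPM and MCL1 rising from 214 to 303 CPM.

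Genes of the ATF4 and CHOP circuit rose while the ATF4 transcript changed little. Of 19 tested, 16 rose, 9 at least 2-fold, and none fell, with a median log2 fold of 0.98. ATF4 itself was at 251, 246 and 248 CPM in the DMSO libraries and 268, 288 and 258 CPM with K149 (0.13 ± 0.05, limma adjusted p = 0.027). ATF4 is known to be controlled mainly at translation, which transcript levels do not report. CHAC1, which degrades glutathione, was at 3.55, 3.5 and 3.5 CPM in the DMSO libraries and 29.9, 37.2 and 32.9 CPM with K149 (2.92 ± 0.09, adjusted p = 1.2e-11). TRIB3, a pseudokinase that dampens AKT and ATF4, was at 37.2, 36.1 and 40.7 CPM in the DMSO libraries and 107, 118 and 111 CPM with K149 (1.53 ± 0.06, adjusted p = 1.1e-10). Control values were tight and all treated values lay far above them. ATF5, a related factor, did not pass the test (-0.05 ± 0.05). ASNS, DDIT3 and DDIT4 rose too, but each shares at least 25% of its exon bases with another gene, so their values are uncertain.

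Genes for amino acid transporters rose in most cases, while those for the cytosolic enzymes that charge tRNA had no shared direction. Of 22 amino acid transporters, 15 rose and 4 fell. SLC7A11, the cystine importer, was at 223, 199.7 and 238 CPM in the DMSO libraries and 752, 638 and 806 CPM with K149 (1.72 ± 0.08, limma adjusted p = 6.5e-10). SLC6A9, a glycine transporter, was at 9.99, 8.645 and 9.745 CPM in the DMSO libraries and 26.9, 28 and 29.8 CPM with K149 (1.48 ± 0.08, adjusted p = 2.8e-09). The glutamate importer SLC1A3 moved the other way, falling from 216 to 73 CPM (-1.55 ± 0.06). Of 20 cytosolic aminoacyl-tRNA synthetases, which load amino acids on tRNA and include known ATF4 targets, 7 rose and 8 fell, and none changed 2-fold. Over all genes tested, 37.7% were higher and 31.5% lower, not far from the shares of this list. The median log2 fold of these synthetases was -0.01, which was slightly above 0 when K149 replicate 2 or 3 was left out. The 2 largest changes were falls, of VARS from 184.9 to 98.66 CPM (-0.90 ± 0.05) and of FARSB from 108.1 to 60.34 CPM (-0.83 ± 0.05). WARS, for tryptophan, rose most, from 108 to 157 CPM, and LARS, for leucine, fell from 222 to 174 CPM. Of 17 mitochondrial synthetases, 10 fell and none rose.

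Serine and one-carbon enzymes moved in both directions. Of 15 genes, 4 rose and 9 fell. ALDH1L2, a mitochondrial folate enzyme, was at 1.9, 2.55 and 2.1 CPM in the DMSO libraries and 17, 14.3 and 18.1 CPM with K149 (2.46 ± 0.11, limma adjusted p = 6.5e-10). PSAT1, the aminotransferase of serine synthesis, went from 107 to 209 CPM (0.96 ± 0.05, adjusted p = 1.6e-09). The cytosolic enzymes SHMT1 and MTHFD1, which feed thymidylate and purine synthesis, fell by log2 folds of -1.33 and -1.4, and PHGDH, the first enzyme of serine synthesis, fell by a log2 fold of -0.47. MTHFD2 was higher and PYCR1 lower, and both values are uncertain because of shared exon bases.

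Regulators of mTORC1 rose in most cases. Of 26 genes for sestrins and mTORC1 regulators, 19 rose and 1 fell, against 37.7% higher and 31.5% lower over all genes tested. SESN3, a FOXO-induced sestrin, was at 5.65, 6.75 and 5.7 CPM in the DMSO libraries and 30.2, 28.6 and 27.4 CPM with K149 (2.08 ± 0.09, limma adjusted p = 2.2e-10). SESN2, the leucine-sensing sestrin induced by ATF4, was at 17.3, 15.3 and 16.5 CPM in the DMSO libraries and 42.9, 46.5 and 48.3 CPM with K149 (1.43 ± 0.07, adjusted p = 1.3e-09). DEPTOR, a subunit that inhibits mTOR, rose from 7.23 to 20.5 CPM (1.38 ± 0.09), whereas RHEB, the activating GTPase, did not pass the test (-0.06). The 3 inhibitors were higher in all 3 treated libraries than in any control.

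Lysosome and autophagy genes rose by smaller folds over many members. Of 37 lysosomal genes, 32 rose and 4 fell, 6 rose at least 2-fold, and the median log2 fold was 0.60. Over all genes tested, 37.7% were higher and 31.5% lower. NEU1, the lysosomal sialidase, was at 59.7, 58.2 and 63.7 CPM in the DMSO libraries and 186, 205 and 186 CPM with K149 (1.65 ± 0.05, limma adjusted p = 2.2e-11). GAA, whose promoter is printed above, was at 40.6, 43.1 and 41.4 CPM in the DMSO libraries and 88.4, 98.6 and 105 CPM with K149 (1.2 ± 0.06, adjusted p = 2.6e-09). CTSS, a cathepsin of antigen-presenting cells, fell from 5.91 to 1.32 CPM. Of 20 V-ATPase and MiT/TFE genes 17 rose, yet TFEB itself fell from 25.4 to 14.3 CPM (-0.79 ± 0.09), TFE3 rose (0.32 ± 0.05) and MITF did not pass the test (0.04). Of 35 autophagy genes, 27 rose and 4 fell. GABARAPL1, which coats autophagosomes, was at 33.4, 31.1 and 30.6 CPM in the DMSO libraries and 133, 137 and 126 CPM with K149 (2.02 ± 0.05, adjusted p = 2.7e-12), and the initiating kinase ULK1 rose from 33.9 to 116 CPM (1.75 ± 0.07).

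Insulin and IGF signalling genes moved in opposite directions within families. Of 23 genes for FOXO factors, insulin receptors, substrates and related targets, 11 rose and 9 fell. Over all genes tested, 37.7% were higher and 31.5% lower. IRS2, an adaptor induced by FOXO, was at 7.3, 8.045 and 9.595 CPM in the DMSO libraries and 17.7, 19.4 and 17.3 CPM with K149 (1.05 ± 0.1, limma adjusted p = 7.4e-07). IRS1, its relative, was at 81.7, 81.6 and 84 CPM in the DMSO libraries and 43.6, 35.1 and 48.6 CPM with K149 (-0.95 ± 0.09, adjusted p = 7.7e-07). IGF2R, which clears IGF2 and sorts lysosomal enzymes, rose from 193 to 466 CPM, and the binding protein IGFBP4 fell from 71.5 to 14.2 CPM (-2.25 ± 0.06). FOXO3 and FOXO4 rose (0.47 ± 0.06 and 0.93 ± 0.1) and FOXO1 fell slightly (-0.2 ± 0.06), a call lost without DMSO replicate 3. The arrestin-domain genes TXNIP and ARRDC4, which reduce glucose uptake, rose by log2 folds of 2.44 and 2.56.

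ERBB2 had the highest mean CPM of all genes tested in both groups and rose little. It was at 5879.5, 5904 and 5770.2 CPM in the DMSO libraries and 6842, 6975 and 7099 CPM with K149 (0.25 ± 0.04, limma adjusted p = 0.00011). Per kilobase of exon this was 567 CPM with DMSO, against 14.3 CPM for EGFR, which did not pass the test (-0.07). Of 16 ERBB receptors and EGF-type ligands, 8 rose and 2 fell, against 37.7% higher and 31.5% lower over all genes tested. The EGFR ligand AREG was at 3.3, 3.4 and 3.85 CPM in the DMSO libraries and 13.5, 15.5 and 12.2 CPM with K149 (1.7 ± 0.1, adjusted p = 1.1e-08), and HBEGF and EGF also rose from a few CPM (0.9 and 0.94), while the ERBB3 and ERBB4 ligand NRG2 fell to under 1 CPM (-1.27). Of 20 feedback inhibitors and markers of ERK signalling 12 rose and 5 fell, with DUSP14, a phosphatase, up by a log2 fold of 1.07 and ETV4, an ERK-driven transcription factor, down by -0.88.

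Genes of 3 developmental pathways moved in both directions, against 37.7% higher and 31.5% lower over all genes tested. Of 26 TGF-beta, activin and BMP genes, 17 rose and 4 fell. FST, follistatin, which binds and blocks activin, was at 12.1, 10.6 and 12 CPM in the DMSO libraries and 1.35, 0.999 and 1.6 CPM with K149 (-2.45 ± 0.12, limma adjusted p = 8.6e-10). ID2, a target of BMP signalling, was at 72.5, 71.4 and 76.2 CPM in the DMSO libraries and 191, 189 and 194 CPM with K149 (1.37 ± 0.05, adjusted p = 2.3e-11), while ID1 did not pass the test (0.13). Of 29 Wnt genes, 17 rose and 8 fell. The receptors FZD7 and LRP5 rose from 32.7 to 65.8 CPM and from 218.5 to 418.5 CPM, and the nuclear effectors TCF7 and LEF1 fell from 15.8 to 6.71 CPM and from 6.08 to 2.33 CPM. In the Notch list 10 of 20 rose and 6 fell, with the ligand JAG1 at log2 1.25 ± 0.05, the glycosyltransferase LFNG at 1.6 ± 0.09, and the receptors NOTCH1 at -0.96 ± 0.08 and NOTCH3 at 0.66 ± 0.07.

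Most keratins fell, and those that rose did so less than 2-fold. Of 14 keratins tested, 9 fell, 7 at least 2-fold, and 4 rose. KRT13, a keratin of the suprabasal esophagus, was at 416, 411 and 418 CPM in the DMSO libraries and 10.6, 9.795 and 15.6 CPM with K149 (-5.03 ± 0.12, limma adjusted p = 6.2e-13). KRT4, its usual partner, was at 30.7, 30.9 and 29.4 CPM in the DMSO libraries and 5.4, 5.3 and 6.39 CPM with K149 (-2.23 ± 0.08, adjusted p = 9e-11). The keratins of simple epithelium, KRT7, KRT8 and KRT18, rose by log2 folds of 0.22, 0.27 and 0.18, while KRT19, also a simple keratin, fell (-0.31). KRT80, an epithelial keratin, rose most in the list, from 163 to 267 CPM (0.71 ± 0.05). The kallikreins KLK10 and KLK6, secreted proteases of squamous epithelium, fell by -2.34 and -1.19 on the log2 scale. Of 33 cornified envelope and suprabasal genes 21 were below the filter and, of the 12 tested, 5 rose and 7 fell. GRHL3, a factor of the epidermal barrier, was at 35.4, 38.7 and 40.2 CPM in the DMSO libraries and 11.6, 7.45 and 15.5 CPM with K149 (-1.69 ± 0.17, adjusted p = 1.7e-06), with replicate 2 lowest, and KLF4, a differentiation factor, rose from 5.03 to 11.7 CPM.

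Most genes that attach cells to matrix and to each other rose. Of 21 integrins and laminins, 17 rose and COL17A1 alone fell, with a median log2 fold of 0.70. Over all genes tested, 37.7% were higher and 31.5% lower. LAMB3, a chain of the basement membrane laminin that anchors epithelium, was at 111, 109 and 115 CPM in the DMSO libraries and 224, 234 and 228 CPM with K149 (1.03 ± 0.04, limma adjusted p = 2.8e-10). ITGAV, the receptor subunit for vitronectin, was at 189, 182 and 175 CPM in the DMSO libraries and 387, 303 and 432 CPM with K149 (1.02 ± 0.09, adjusted p = 6.7e-07). These values left a clear gap to the controls although replicate 2 was the lowest treated library for ITGAV. ITGB4, the hemidesmosomal integrin, did not pass the test (-0.05). Of 23 desmosome and tight junction genes, 16 rose and 4 fell. JUP, plakoglobin, which links desmosomes and adherens junctions to the cytoskeleton, was at 704, 717 and 736 CPM in the DMSO libraries and 1347, 1481 and 1384 CPM with K149 (0.96 ± 0.04, adjusted p = 7e-10). Of the paired desmocollins, DSC2 rose (0.96 ± 0.07) and DSC3 fell (-0.67 ± 0.07). The fibroblast marker sums given above were also slightly higher with K149, and their part in these results was not tested.

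**Figure D4:**
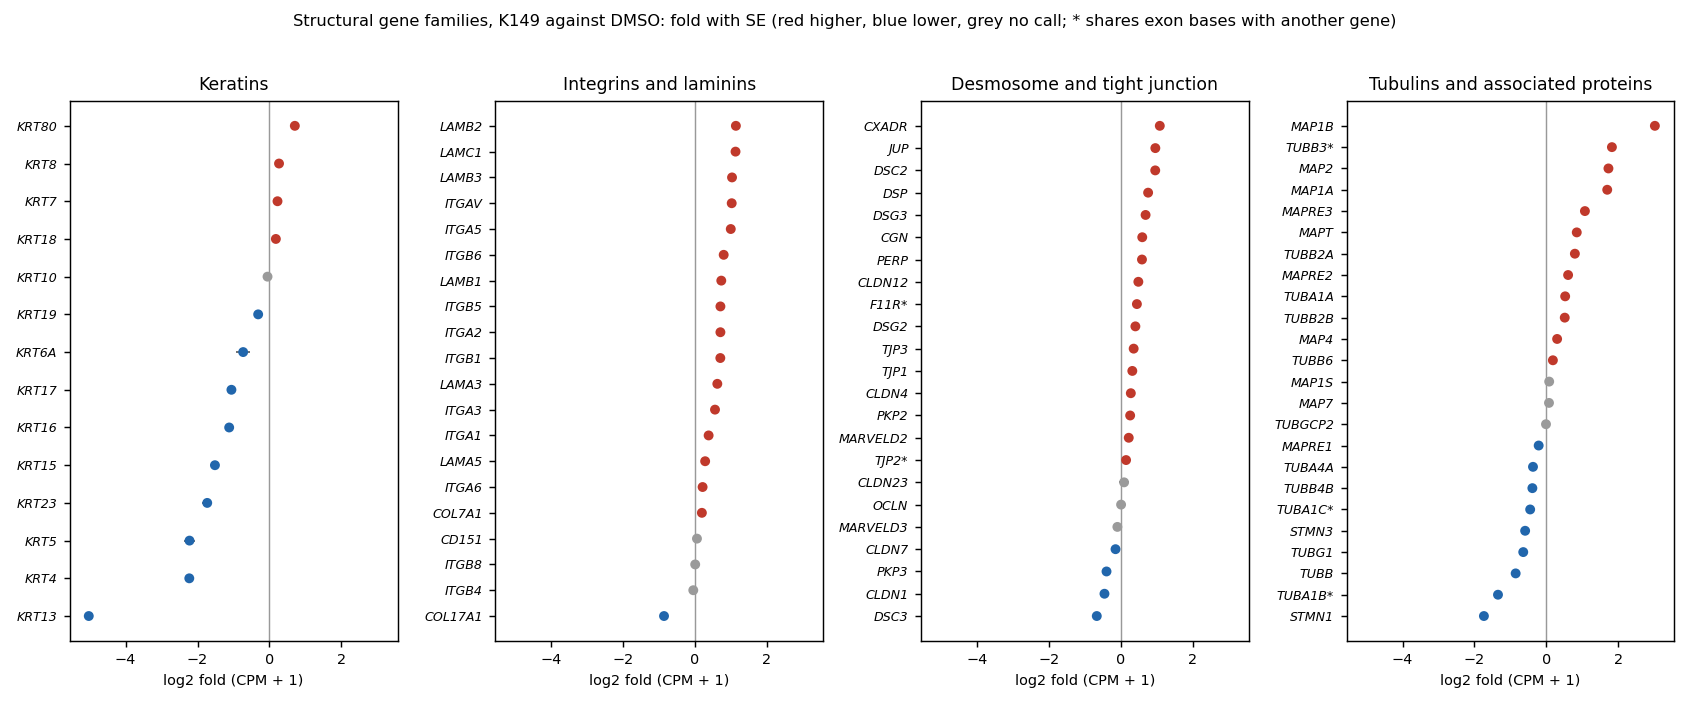
Log2 fold with SE (x axis) of the tested members of 4 structural families, with 1 member not shown, named on the y axis. Keratins spread from KRT13 at -5.03 upwards, integrins and laminins lie mostly above 0, and tubulins split around 0.

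Microtubule genes moved in both directions. Of 24 tubulins and associated proteins, 12 rose and 9 fell, against 37.7% higher and 31.5% lower over all genes tested. TUBB, the main beta-tubulin, was at 1457, 1439.9 and 1457 CPM in the DMSO libraries and 792, 862 and 758 CPM with K149 (-0.85 ± 0.05, limma adjusted p = 4.9e-09). STMN1, which destabilises microtubules, was at 184, 193 and 185 CPM in the DMSO libraries and 55, 60.6 and 51.1 CPM with K149 (-1.74 ± 0.06, adjusted p = 3.3e-11). MAP2, a dendritic microtubule protein, was at 26.7, 26.3 and 26.7 CPM in the DMSO libraries and 94.2, 82 and 95.3 CPM with K149 (1.73 ± 0.06, adjusted p = 6.6e-11). TUBB and STMN1 fell in every treated library and MAP2 was above every control. MAP1B, a microtubule protein of growing axons, and MAP1A rose from about 2 CPM (3.02 ± 0.13 and 1.69 ± 0.11), and TUBB2A rose (0.79 ± 0.07). The neuronal marker list summed to 39.7 to 43.5 CPM with DMSO and 127 to 158 CPM with K149, most of it from TUBB3, whose exons overlap another gene. The defining markers SYP, CHGA, SNAP25 and INSM1 were below the filter. The part of such cells in the microtubule result was not tested. Of 32 ciliary transport genes 22 rose and 4 fell, none 2-fold.

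Genes of oxidant defence and of iron handling rose in most cases, and the other metabolic lists were mixed. Of 29 glutathione and oxidant defence genes, 21 rose and 2 fell, against 37.7% higher and 31.5% lower over all genes tested. TXNRD1, thioredoxin reductase, was at 604, 576 and 646 CPM in the DMSO libraries and 2021, 1992 and 2005 CPM with K149 (1.72 ± 0.05, limma adjusted p = 2.4e-12). AKR1B10, an aldo-keto reductase usually induced with it by NRF2, was at 73.1, 60.9 and 85.7 CPM in the DMSO libraries and 20.2, 22.1 and 19.9 CPM with K149 (-1.76 ± 0.1, adjusted p = 4.5e-09). The 2 genes thus went in opposite directions in every treated library. Of 13 iron genes, 10 rose and 2 fell. SLC40A1, ferroportin, which exports iron, was at 10.5, 9.54 and 10.9 CPM in the DMSO libraries and 52.1, 45.9 and 54.5 CPM with K149 (2.19 ± 0.08, adjusted p = 5.9e-11), and the storage gene FTL and the uptake receptor TFRC rose as well (0.67 and 0.56). The falls were the iron sensor TFR2, from 5.56 to 1.02 CPM, and the reductase STEAP3 (-0.39). Of 27 glycolysis and hypoxia genes, 11 rose and 11 fell, not far from the shares over all genes tested. LDHA, which makes lactate, fell from 766 to 355 CPM (-1.11 ± 0.05), and PFKFB3 rose from 49.9 to 78.6 CPM. Of 34 cholesterol and fatty acid synthesis genes 20 fell and 9 rose, with SREBF1, their transcription factor, falling from 138 to 74.8 CPM. HADH, a beta-oxidation enzyme, fell from 86 to 32.4 CPM in a list where 10 of 26 rose and 4 fell; without K149 replicate 2 that list had 22 calls in place of 14.

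The machinery for RNA processing, nuclear transport and protein folding fell by small folds over many members. Of 36 splicing factors, 33 fell and none rose, with a median log2 fold of -0.64. HNRNPA1, an abundant RNA-binding protein, was at 780.3, 791 and 775 CPM in the DMSO libraries and 340.3, 357 and 326 CPM with K149 (-1.2 ± 0.04, limma adjusted p = 5.4e-11). Of 37 nucleoporins and transport receptors, 28 fell and 4 rose. KPNA2, an importin, was at 376, 395 and 386 CPM in the DMSO libraries and 71.2, 66.5 and 63 CPM with K149 (-2.51 ± 0.05, adjusted p = 1.5e-13), the largest fall of that list. Of 33 mitochondrial ribosome proteins, 32 fell and 1 rose, with a median of -0.38 and 1 fall of at least 2-fold. Of 23 CCT subunits and cytosolic heat shock proteins, 17 fell, including HSP90AB1 (-0.55 ± 0.04), while DNAJB4 and the autophagy-linked HSPB8 rose (1.3 ± 0.06 and 1.1 ± 0.05). In the endoplasmic reticulum, 16 of 25 chaperone and stress genes rose and 6 fell, with the sensor ERN1 rising from 11.6 to 28.2 CPM and the chaperone MANF falling from 67.6 to 34.7 CPM.

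**Figure D5:**
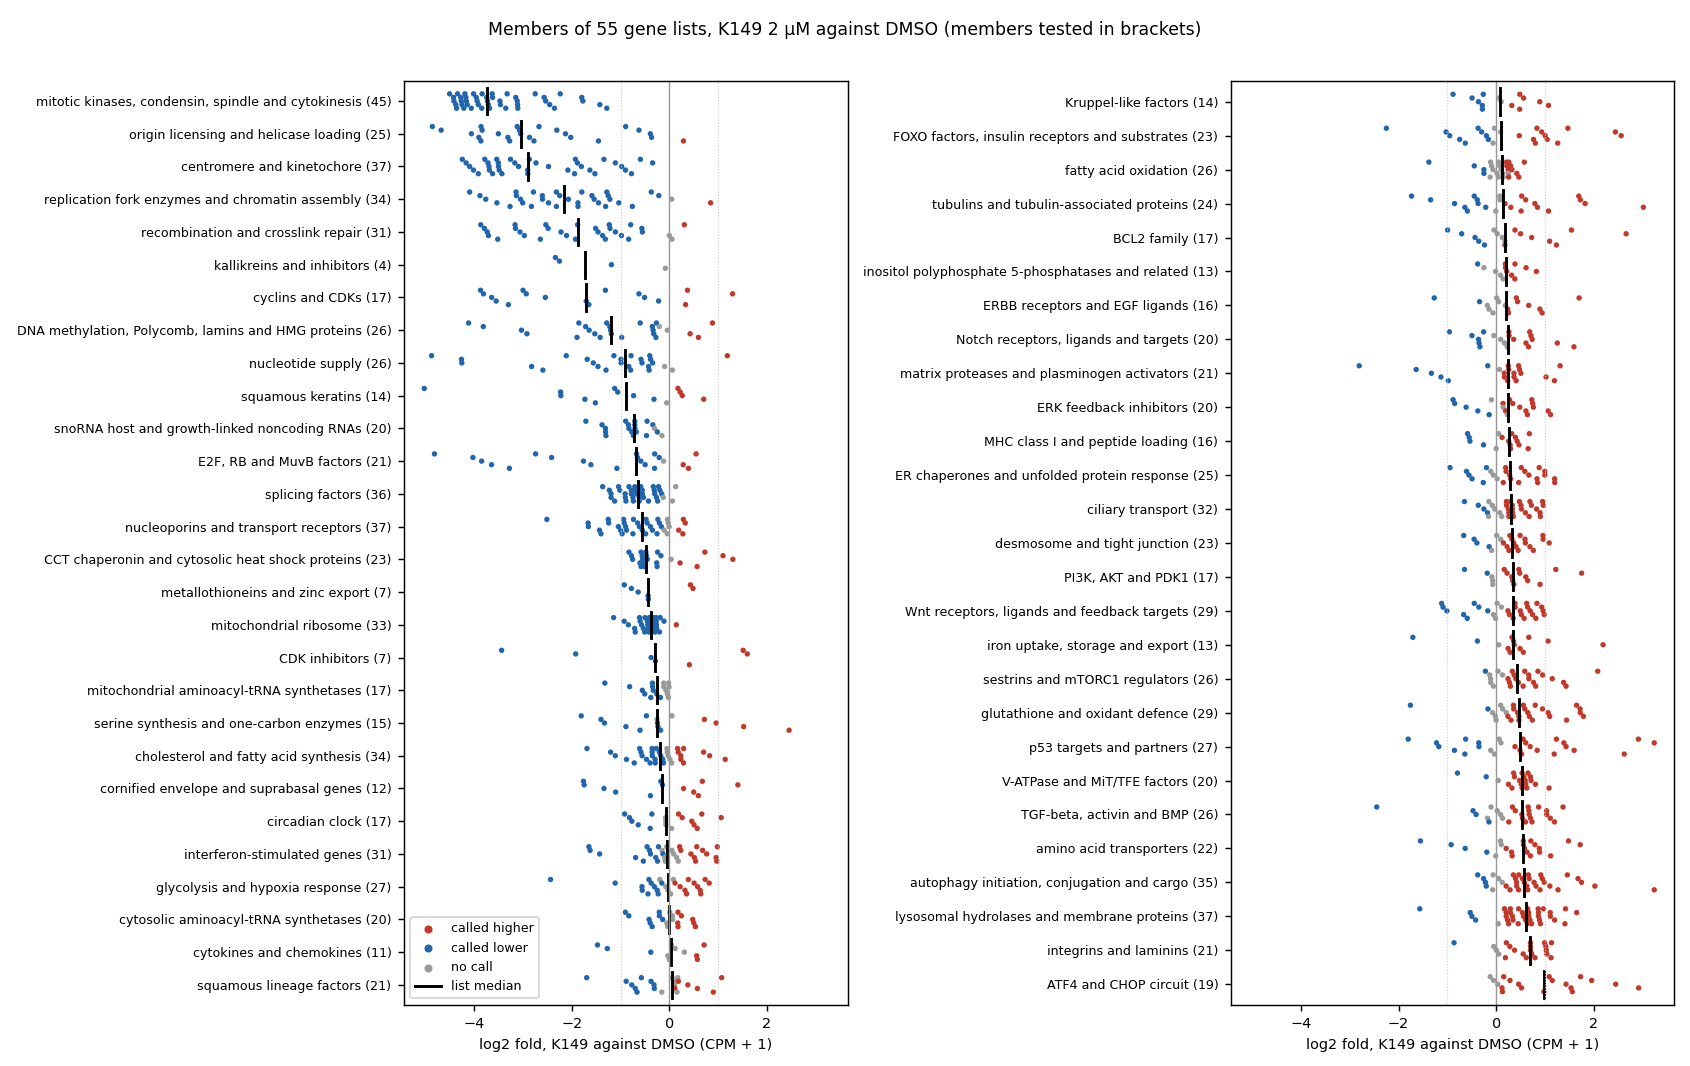
Each point is the log2 fold (x axis) of 1 tested member of 1 of 55 gene lists (y axis, ordered by median), red where called higher, blue where called lower and grey where not called, with a line at the list median. The medians run from -3.73 for the mitotic list to 0.98 for the ATF4 and CHOP circuit.

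Immune and matrix genes moved in part. Of 31 interferon-stimulated genes, 11 rose and 12 fell, against 37.7% higher and 31.5% lower over all genes tested. The median of this list, -0.06, changed sign when K149 replicate 2 was left out. IFIT1, which binds foreign RNA, was at 14.5, 15 and 14 CPM in the DMSO libraries and 4.7, 4.45 and 5.14 CPM with K149 (-1.43 ± 0.09, limma adjusted p = 1.2e-08), and IRF7, an interferon-inducing factor, rose from 6.6 to 13.9 CPM. Of 16 MHC class I and peptide loading genes, 10 rose and 4 fell, with HLA-E at log2 0.43 ± 0.04 and B2M at 0.32 ± 0.04. Of 30 cytokines and chemokines 19 were below the filter, and LIF and the interleukin-1 antagonist IL1RN fell (-1.27 ± 0.08 and -1.47 ± 0.1). In plasminogen activation, SERPINB2 was at 9.94, 9.44 and 9.295 CPM in the DMSO libraries and 0.799, 0.15 and 0.649 CPM with K149 (-2.81 ± 0.15, adjusted p = 2.6e-09), and PLAT fell from 34.1 to 10.2 CPM.

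Noncoding RNA followed no single direction. Of 2768 long noncoding genes tested, 942 rose and 670 fell, against 5231 and 4439 of 13238 protein-coding genes. LUCAT1, a stress-induced RNA, was at 0.4, 0.45 and 0.55 CPM in the DMSO libraries and 6, 6.05 and 5.04 CPM with K149 (2.19 ± 0.11, limma adjusted p = 2.1e-09). PRC1-AS1, antisense to the spindle gene PRC1, was at 48.7, 51.6 and 49.8 CPM in the DMSO libraries and 2.35, 2.6 and 2.55 CPM with K149 (-3.87 ± 0.08, adjusted p = 1.4e-13), and the sources used here do not say whether counting used strand, so its reads cannot be told apart from those of PRC1. MALAT1, a nuclear RNA, was at 94.5, 79.3 and 65.5 CPM in the DMSO libraries and 704, 153 and 148 CPM with K149 (1.66 ± 0.43, adjusted p = 0.0036); replicate 1 was more than 4 times the other treated libraries, and without it the log2 fold was 0.92. NORAD, a cytoplasmic RNA that binds Pumilio proteins, was at 286, 295 and 289 CPM in the DMSO libraries and 536, 474 and 522 CPM with K149 (0.81 ± 0.05, adjusted p = 8.8e-09). Of 20 snoRNA host and growth-linked noncoding genes 18 fell and none rose, and of 74 snoRNA genes 56 fell and none rose, with a median of -0.53; snoRNA genes lie inside their hosts, and many share exon bases with them, so these values are uncertain.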

How the data were processed

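Per the labels' protocols, total RNA was purified on columns with DNase digestion and the Ovation Solo kit gave the libraries. Per the submitters' processing notes, the authors used STAR 2.5.3a and HTSeq with the hg38 build; counting rules and strand use were not given in these sources. The deposited table by the authors is one of CPM for 58302 gene IDs, of which 58039 matched GENCODE 29. Of the low values checked, 100.0% were within 0.05 steps of a whole number of steps of about 0.05 CPM. A step was taken as a scaled read, and these summed to 20.01 or 20.02 M in each library. Inferred scale factors from reads to steps were 0.868 to 1.0005, which gave the depths stated above. The edgeR and DESeq2 fits used the scaled reads, not the original counts. In K149 replicate 3 the lowest step was empty, and edgeR was therefore also run without it, an alternative chosen after seeing the data.

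Groups came from titles, except DMSO replicate 3, whose title names no arm and whose library name was used. The main test was limma 3.58.1 (R 4.3.3) with the trend option on log2(CPM + 1) of the 6 libraries, with genes at a mean of at least 1 CPM in either group and Benjamini-Hochberg adjustment over all 17191; a call is an adjusted p under 0.05, and folds are differences of group means on that scale, given with their SE, which understate changes of low genes. The model was also run on simulated data in which every library had the same spread. That run cannot show how the model behaves with a library that stands apart, as K149 replicate 2 did. Alternatives were pseudocounts of 0.5 and 5, no filter, a filter of 5 CPM, TMM and DESeq2 scaling, edgeR 4.0.16, DESeq2 1.42.0, a replicate block and leaving out each library. Genes sharing at least 25% of exon bases with another gene are called uncertain.

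The members and the 63 gene lists were chosen with earlier results of these data known. Named genes were INPPL1; the 20 largest called changes in each direction without group overlap; in each list the 4 largest called members and those against its direction; genes crossing from 10 to under 1 CPM; the 6 largest long noncoding changes in each direction; and the 10 largest gains and losses in CPM. Other genes named for their role within a list were chosen after their values were seen. A few genes of these lists count in the totals but are not reported here by name.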

Additional observations from a re-analysis of the deposited data

How the results depend on the processing

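Of 451 genes chosen by the naming rule, 437 were tested in all 16 settings. The direction and the call held in each setting that tested the gene for 421; the other 30 lost the call in at least 1 setting and none reversed. Counts of genes called ranged from 9942 with a filter of 5 CPM to 12449 with no filter, and from 10830 to 12638 when single libraries were left out. Of the main calls, 11417 were also made by edgeR and 10587 by DESeq2, in the same direction. The share of calls that were higher was 54.5%, and 50.5% after TMM scaling. Counts of genes at least 2-fold higher depended on the scale: 590 in the main analysis, 286 with a pseudocount of 5, 978 with edgeR, 965 with DESeq2 and 959 with edgeR without K149 replicate 3. Genes at least 2-fold lower were 992, against 631 with a pseudocount of 5, 1435 with edgeR, 1448 with DESeq2 and 1442 with edgeR without K149 replicate 3. With a pseudocount of 0.5, 790 genes were at least 2-fold higher and 1139 at least 2-fold lower. A larger pseudocount shrinks the folds of low genes by construction. The cause of the differences with edgeR and DESeq2 was not tested. Deviations of same-numbered libraries had correlations of 0.13, 0.07 and -0.04, and those of the other pairs lay from -0.14 to 0.07. With 3 libraries per group these values cannot show whether the numbers pair the libraries. With the replicate block 12013 genes were called, 11753 of them shared with the main analysis. Calls in the Wnt list were 25, and 16 with a filter of 5 CPM, which tests fewer genes. List medians near 0 changed sign in single settings for the circadian clock, cytokines, cytosolic synthetases, glycolysis, interferon-stimulated genes and squamous lineage factors. Values under 1 CPM rest on few reads.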

Other observations

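Among the 20 largest rises were genes outside the lists described above. AHNAK2, a giant scaffold protein, was at 45.2, 46.7 and 43.3 CPM in the DMSO libraries and 302, 274 and 243 CPM with K149 (2.57 ± 0.07, limma adjusted p = 2.2e-12). KLHL24, an adaptor of a ubiquitin ligase that targets keratins in skin, was at 17.9, 17.7 and 15.8 CPM in the DMSO libraries and 95.9, 79.7 and 101 CPM with K149 (2.35 ± 0.08, adjusted p = 4.6e-11). COL4A4, a chain of basement membrane collagen, was at 4.6, 5 and 4.6 CPM in the DMSO libraries and 27.3, 27.4 and 26.4 CPM with K149 (2.29 ± 0.08, adjusted p = 3.1e-11). All 3 were higher in every treated library than in any control. NATD1 and KIAA0319 rose by log2 folds of 2.45 and 2.52.

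By absolute level, the 10 largest gains included TXNRD1, FTL, SQSTM1 (from 761.5 to 2099 CPM), an autophagy receptor, the matrix protein TINAGL1 (from 408 to 958 CPM), the cytolinker PLEC (from 912 to 1672 CPM) and PSAP (from 712 to 1540.0 CPM), precursor of lysosomal saposins. The 10 largest losses included MYBL2, TOP2A, TUBB, PKM (from 2582 to 2090.0 CPM), HSP90AB1 and DIO2, a deiodinase that activates thyroid hormone, at 1061, 1075 and 1152 CPM in the DMSO libraries and 447, 406 and 483 CPM with K149 (-1.3 ± 0.06, limma adjusted p = 5.5e-10). Of 14 Kruppel-like factors, 6 rose and 6 fell, and of 17 circadian clock genes 7 rose and 6 fell. Of 7 metallothionein and zinc export genes tested, 5 fell and 2 rose. Of 13 mitochondrially encoded messenger RNAs 3 rose and 6 fell, none 2-fold, and 5 were called without DMSO replicate 1.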
